A study of Mus musculus with 4 samples.

Results

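The cells described here are the endoderm cells of mouse blastocysts that had been taken out of embryonic diapause with estradiol, set against the endoderm cells of blastocysts still in diapause. The members were chosen by measured values. Every cell with at least 1000 unique molecular identifiers (UMIs, each standing for 1 captured mRNA molecule) was assigned from the UMIs of 25 genes in 3 sets. The endoderm set held Sparc, Col4a1, Lamb1, Srgn, Gata4, Sox17, Cubn and Amn, the epiblast set 7 genes such as Sox2, Nanog and Utf1, and the trophoblast set 10 genes such as Gata3, Cdx2 and Elf5. A cell took the identity of the set that had at least 3 UMIs and at least 60% of the UMIs of all 3 sets. This gave 305 endoderm cells in the Reactivated library and 905 in the EDG9.5 library, 1210 together, out of 4953 endoderm cells and 14482 cells of at least 1000 UMIs in the 4 libraries of the series.

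All embryos were wild type, of the strain B6C3F1/J, and whole pooled embryos were dissociated with TrypLE and captured as single cells. Reactivated is labelled as EDG9.5 plus 30 h of estradiol (E2), and EDG9.5 is diapause at day 9.5. EDG7.5, diapause at day 7.5, and E5.5, embryos taken from implantation sites at day 5.5, give the context on either side. The diapause and Reactivated libraries each pooled 200 to 250 blastocysts flushed from the uterus, and the E5.5 library pooled 50 embryos. There was 1 library per stage, so no difference between stages has a replicate check and none was tested. The intervals below are 95% intervals for counting error alone, and anything that separates the libraries besides the stage cannot be told apart from it.

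In diapause the mouse blastocyst stays free in the uterus, its cells nearly stop dividing, and development resumes when the mother's estrogen rises and implantation begins. The primitive endoderm is the layer of the inner cell mass that faces the blastocyst cavity. After implantation it gives rise to the visceral endoderm, an absorbing and secreting epithelium that feeds and patterns the epiblast, and to the parietal endoderm, which lays down the thick basement membrane around the conceptus. Visceral endoderm takes up maternal proteins through a receptor complex of cubilin, amnionless and megalin at its apical surface, and secretes carrier proteins and signalling antagonists.

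The cells carried the markers of the label. In CPM (the gene's UMIs scaled to a common total of UMIs over all endoderm cells of a library), Sparc, a matrix glycoprotein, had 4720.4 CPM in Reactivated and 4045 CPM in EDG9.5. Col4a1, the collagen chain of basement membranes, had 2211 CPM in both libraries. Cubn, which encodes cubilin, had 1448 CPM in Reactivated and 166 CPM in EDG9.5. Of the 8 endoderm genes, 2 were at least 2-fold higher in Reactivated (Cubn and Amn) and 2 lower (Sox17 and Lamb1). Because the 8 endoderm genes chose the cells, their values are descriptions, and counts and sums of lists that hold any of the 25 genes are given below without them. The epiblast set summed to 539 CPM in Reactivated endoderm cells, of which Utf1 gave 518 CPM, against 281 CPM in EDG9.5, and the trophoblast set to 48.9 CPM in Reactivated against 71.0 CPM in EDG9.5. The lowest share of endoderm-set UMIs in any member was 78.3% in Reactivated and 60% in EDG9.5, where 6 cells lay between 60% and 70% and 1 cell between 50% and 60% was left outside.

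The libraries differed in depth. Reactivated endoderm cells had a median of 14262 UMIs and 4282 genes, against 3584 UMIs and 1947 genes in EDG9.5, and the summed counts were 4699350 UMIs in Reactivated and 3772684 in EDG9.5. Trophoblast-set cells had medians of 11108 UMIs in Reactivated and 3803 in EDG9.5. Endoderm made up 45.9% of the 664 cells with an identity in Reactivated (exact binomial interval 42.1 to 49.8) and 36.6% of the 2472 in EDG9.5 (34.7 to 38.5); capture and dissociation can also set such shares. EDG9.5 and Reactivated shared 3 cell barcodes, none of them between endoderm cells. Lists of markers for the maternal cell types that a flushed blastocyst could carry were low. The immune list summed to 4.68 CPM in Reactivated and 10.1 CPM in EDG9.5, the erythroid list to 0.851 and 0.265 CPM in Reactivated and EDG9.5, and the endothelial list to 59.8 CPM in Reactivated and 55.4 CPM in EDG9.5; Ptprc, Cd52, Tyrobp, C1qa, Hba-a1, Hbb-bs and Cldn5 had no UMI in either. The uterine epithelial list summed to 109 CPM in Reactivated and 128 CPM in EDG9.5, with no UMI of Lcn2, Wnt7a or Areg. The decidual stroma list summed to 94.1 CPM in Reactivated and 41.1 CPM in EDG9.5, and 380 of the 386 Reactivated UMIs of its collagens and decorin (Col1a1, Col1a2, Col3a1 and Dcn) sat in 1 cell, which had 207 Sparc UMIs, 2 Dab2 UMIs and no Cubn UMI. Those 4 genes are not described as differences of the endoderm.

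Of 12724 genes with at least 10 UMIs over both sums, 706 (5.55%) were at least 2-fold higher in Reactivated endoderm cells and 1323 (10.4%) at least 2-fold lower, on the scale log2 of (CPM + 10), which understates the change of low genes. The 10695 other genes lay within 2-fold. Those shares are the background for each count of list members in endoderm cells below. The 2 diapause libraries differed far less in endoderm cells. Against EDG7.5, 20 of 12583 genes (0.159%) were at least 2-fold higher in EDG9.5 and 10 (0.0795%) lower. These 2 libraries were also closer in depth: endoderm medians were 5128 UMIs in EDG7.5, 3584 in EDG9.5 and 14262 in Reactivated. Between E5.5 and Reactivated, 455 of 15223 genes (2.99%) were higher in E5.5 and 347 (2.28%) lower. The median gene stood at a log2 ratio of −0.16 in Reactivated over EDG9.5. With trimmed-mean (TMM) scaling in place of library totals it stood at −0.02, and the counts became 1162 higher and 879 lower, so the balance of higher and lower genes depends on the scaling and is not read here.

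**Figure D1:**
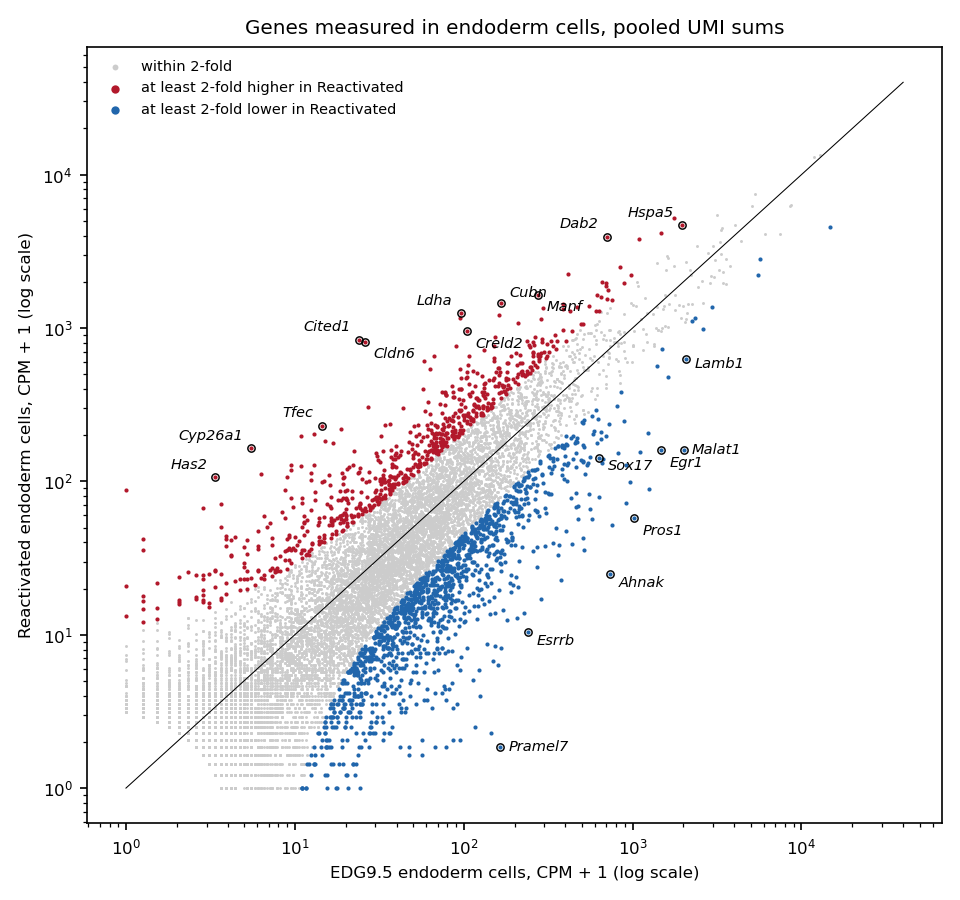
Each point is 1 measured gene, with CPM + 1 in EDG9.5 endoderm cells across and in Reactivated endoderm cells up, both on log axes, and the line marks equality. Red points are the 706 genes at least 2-fold higher in Reactivated and blue points the 1323 at least 2-fold lower; Cited1 (839 CPM in Reactivated, 23.1 CPM in EDG9.5) and Ahnak (23.8 CPM in Reactivated, 735 CPM in EDG9.5) lie far on either side.

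The plot of all measured genes shows the spread of the comparison at a glance. Genes past 2-fold lie on both sides of the line of equality, from low to high CPM.

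Genes of the uptake machinery of the visceral endoderm were among the higher ones. Of 14 genes of endocytic receptors and their partners, without the rule genes Cubn and Amn, 3 were at least 2-fold higher in Reactivated (Lrp2, Dab2 and Folr1) and 1 was lower, against a background of 5.55% higher. Lrp2, the giant receptor megalin that works with cubilin, had 1339 CPM in Reactivated and 293 CPM in EDG9.5, a ratio of 4.58 (4.29 to 4.88). Dab2, the adaptor that links these receptors to clathrin coats, had 3932 CPM in Reactivated and 700.3 CPM in EDG9.5. Folr1, a folate receptor, had 196 CPM in Reactivated and 31.5 CPM in EDG9.5. Other partners moved less: Lrpap1, the chaperone of megalin, had 947 CPM in Reactivated and 653 CPM in EDG9.5, and Stard8 was the lower one, with 67.9 CPM in Reactivated and 157 CPM in EDG9.5. Together the 14 genes summed to 6994 CPM in Reactivated and 2277 CPM in EDG9.5, and most of that gain lay in Dab2 and Lrp2. The median log2 ratio of the 14 genes was 0.30 against −0.16 over all genes. In the other libraries the sum was 2448 CPM in EDG7.5 and 6175 CPM in E5.5.

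Cited1 and Cldn6, both known from visceral endoderm, had the highest log2 ratios of the genes ranked, 4.68 and 4.55. Cited1, a transcriptional coregulator, had 839 CPM in Reactivated and 23.1 CPM in EDG9.5, 36.4-fold (29.4 to 45.5). Cldn6, a claudin of embryonic epithelia, had 812 CPM in Reactivated and 25.2 CPM in EDG9.5, 32.2-fold (26.3 to 40.0). In E5.5 the levels were 1029.6 CPM for Cited1 and 1034 CPM for Cldn6, and in EDG7.5 they were 9.68 CPM and 8.47 CPM. At the apical surface the genes were mixed. Slc9a3r1, the scaffold NHERF1 of microvilli, had 536 CPM in Reactivated and 62.6 CPM in EDG9.5, and Podxl, an apical sialomucin, had 311 CPM in Reactivated and 118 CPM in EDG9.5. Espn, an actin bundler of microvilli, went the other way, with 3.62 CPM in Reactivated and 75.5 CPM in EDG9.5. The apical list as a whole had 3 of 15 genes higher and 2 lower.

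Of 15 measured genes of secreted proteins and lipid carriage, 7 were at least 2-fold higher in Reactivated and 1 lower, with a median log2 ratio of 0.95. Spink3, a secreted protease inhibitor, had 653 CPM in Reactivated and 66.0 CPM in EDG9.5. Ttr, the thyroxine and retinol carrier transthyretin, had 127 CPM in Reactivated and 8.48 CPM in EDG9.5. Soat2, which esterifies cholesterol, had 111 CPM in Reactivated and 5.30 CPM in EDG9.5. These were partial values: in E5.5 Spink3 had 2951 CPM and Ttr 1189 CPM, and the list summed to 1983 CPM in EDG7.5, 1823 CPM in EDG9.5, 4057 CPM in Reactivated and 13598 CPM in E5.5. Apoe, an apolipoprotein, had 837 CPM in Reactivated and 692 CPM in EDG9.5, and Ahsg, the serum protein fetuin-A, was lower, with 5.53 CPM in Reactivated and 35.0 CPM in EDG9.5.

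The higher values were spread over many cells. With every cell thinned to 1000 UMIs so that depth was equal, and no cell left out, at least 1 Cited1 UMI was found in 48.9% of Reactivated endoderm cells (43.1 to 54.6) and 0.884% of EDG9.5 endoderm cells (0.382 to 1.73), against 0 of 153 thinned trophoblast-set cells in Reactivated, which by a floor of 3 cells allows a share of up to 1.96% at that depth, and 0.308% in EDG9.5. Unthinned, those shares were 93.1% and 3.87% of endoderm cells in Reactivated and EDG9.5 and 7.19% and 0.821% of trophoblast-set cells in Reactivated and EDG9.5. For Cldn6 the thinned shares were 51.8% in Reactivated and 1.10% in EDG9.5, and 6.54% and 0.718% in trophoblast-set cells of Reactivated and EDG9.5. The unthinned Cldn6 shares were 95.4% of Reactivated and 3.09% of EDG9.5 endoderm cells. Most Reactivated cells thus carried these RNAs, and the shares in trophoblast-set cells were lower than in Reactivated endoderm. After thinning, 33 of 305 Reactivated cells had neither a Cubn nor an Amn UMI, against 761 of 905 EDG9.5 cells. Both are rule genes, so these counts are a description. The endoderm set without Cubn and Amn also gave 305 Reactivated and 905 EDG9.5 cells. No Dab2 UMI was found in 16 Reactivated and 559 EDG9.5 cells of the same numbers, although trophoblast-set cells also carried it: thinned, 9.80% of them in Reactivated and 85.5% in EDG9.5.

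**Figure D2:**
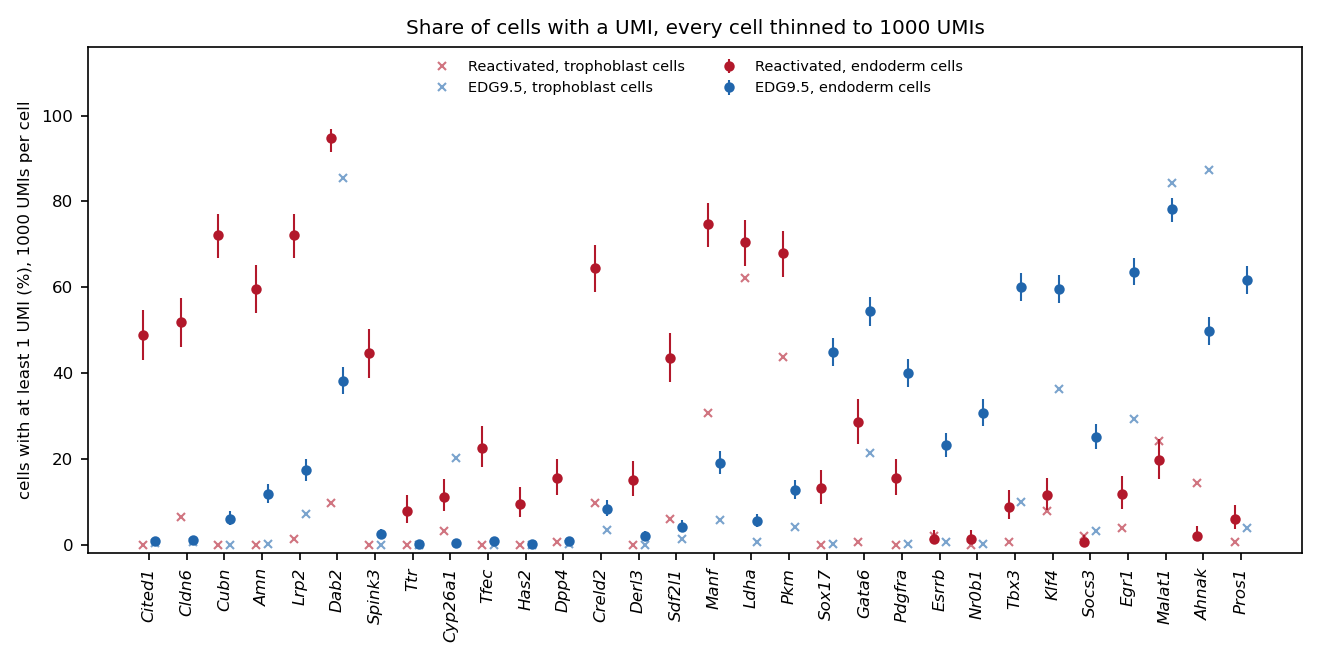
Share of cells with at least 1 UMI of each gene (percent, vertical axis) after every cell was thinned to 1000 UMIs, with circles and 95% exact binomial intervals for endoderm cells and crosses for trophoblast-set cells, red for Reactivated and blue for EDG9.5. Cited1 was found in 48.9% of Reactivated and 0.884% of EDG9.5 endoderm cells, while Malat1 was found in 19.7% of Reactivated and 78.1% of EDG9.5 endoderm cells and in 24.2% of Reactivated and 84.4% of EDG9.5 trophoblast-set cells.

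The plot of thinned shares shows the same direction gene by gene, with intervals that do not meet for Cited1, Cldn6, Creld2, Ldha, Socs3 and Egr1. Cubn, Amn and Sox17 are rule genes, and their shares are a description. Intervals of this kind do not cover differences between libraries.

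Genes of the folding and export machinery of the endoplasmic reticulum (ER) were higher together, many of them abundant. Of 41 genes, 25 were at least 2-fold higher in Reactivated and 1 lower, with a median log2 ratio of 1.13. The list summed to 31276 CPM in Reactivated and 13832 CPM in EDG9.5, about the EDG7.5 value of 13422 CPM, and E5.5 lay between at 19471 CPM. Per cell thinned to 1000 UMIs, the list had a median of 31 UMIs in Reactivated (10th to 90th percentile 20 to 42) and 13 in EDG9.5 (7 to 20). The 10th percentile of Reactivated cells thus equalled the 90th percentile of EDG9.5 cells.

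Hspa5, the ER chaperone BiP, had 4690.4 CPM in Reactivated and 1953 CPM in EDG9.5, 2.40-fold (2.34 to 2.47). Hsp90b1, the ER chaperone GRP94, had 3811 CPM in Reactivated and 1091 CPM in EDG9.5, and Calr, the glycoprotein chaperone calreticulin, had 4181 CPM in Reactivated and 1478 CPM in EDG9.5. The oxidoreductase Pdia6, which forms disulphide bonds, had 1144 CPM in Reactivated and 284 CPM in EDG9.5. Smaller ER genes had higher ratios, though Creld2 and Derl3 are not members of the list counted above. Creld2, an ER-resident stress-inducible protein, had 951 CPM in Reactivated and 104 CPM in EDG9.5, 9.15-fold (8.25 to 10.2). Sdf2l1, a partner of ER DnaJ chaperones, had 605 CPM in Reactivated and 57.5 CPM in EDG9.5, and Derl3, which takes part in the export of misfolded proteins, had 220.0 CPM in Reactivated and 17.8 CPM in EDG9.5. Manf, an ER-retained trophic factor, had 1648 CPM in Reactivated and 275 CPM in EDG9.5. For all of these Reactivated held the highest level of the 4 libraries: Creld2 had 102 CPM in EDG7.5 and 187 CPM in E5.5, and Derl3 23.6 CPM in EDG7.5 and 9.79 CPM in E5.5. Xbp1, a transcription factor of the unfolded protein response, had 314 CPM in Reactivated and 313 CPM in EDG9.5; its spliced form was not measured. Creb3l2, a membrane-bound factor of secretory cells, was the lower gene, with 71.9 CPM in Reactivated and 196 CPM in EDG9.5.

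The promoters of ER chaperone genes are known to carry the ER stress response element, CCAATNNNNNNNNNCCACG, whose outer blocks are read by NF-Y and by the ATF6 and XBP1 factors. The stretches below show where these letters lie in the promoters of some higher ER genes. They also include Canx, the membrane chaperone calnexin, which has the letters and had 961 CPM in Reactivated and 829 CPM in EDG9.5. They are RefSeq promoter sequence of build GRCm38.p6, 5′ to 3′ on the gene's strand, with the 2 blocks of the element in capitals (read on the other strand they are CGTGG and ATTGG) and 25 bases on either side. Herpud1, a membrane protein of ER-associated degradation, is shown for the shorter form of the element, ATTGG and CCACG spaced by 1 base.
Hspa5, chr2:34772000-34772068, plus strand: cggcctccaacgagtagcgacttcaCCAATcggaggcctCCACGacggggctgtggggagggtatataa
Hsp90b1, chr10:86705613-86705681, minus strand: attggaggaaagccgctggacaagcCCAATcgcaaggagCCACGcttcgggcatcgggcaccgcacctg
Hsp90b1, chr10:86705508-86705576, minus strand: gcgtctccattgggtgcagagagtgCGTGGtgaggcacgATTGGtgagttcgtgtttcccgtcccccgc
Calr, chr8:84847050-84847118, minus strand: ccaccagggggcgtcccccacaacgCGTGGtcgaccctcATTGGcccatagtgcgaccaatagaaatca
Creld2, chr15:88819495-88819563, plus strand: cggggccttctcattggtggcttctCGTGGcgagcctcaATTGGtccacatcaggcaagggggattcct
Derl3, chr10:75893217-75893285, plus strand: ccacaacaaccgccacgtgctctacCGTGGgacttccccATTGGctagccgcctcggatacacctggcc
Pdia6, chr12:17266466-17266534, plus strand: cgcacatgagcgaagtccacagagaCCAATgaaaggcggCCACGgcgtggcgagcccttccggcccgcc
Canx, chr11:50325775-50325843, minus strand: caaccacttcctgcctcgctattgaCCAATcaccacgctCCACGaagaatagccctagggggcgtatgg
Herpud1, chr8:94386352-94386412, plus strand: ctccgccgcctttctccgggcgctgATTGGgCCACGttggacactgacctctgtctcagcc

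The first base of the element lay 65 bases before the annotated start in Hspa5, 98 in Pdia6, 126 in Creld2, 145 in Canx, 156 in Derl3 and 162 in Calr, and Hsp90b1 had it at 212 and 107 bases. On either strand, 39 of the 32851 RefSeq windows of 300 bases (250 before the start and 50 after it) held the longer element, 0.119%. Those windows belonged to 37 genes, of which 19 were measured: 10 of the 19 were at least 2-fold higher in Reactivated and 2 lower, while 500 of the 8872 measured genes with a window were higher. Besides the genes printed, the higher ones were Dnajc3, Syvn1, Hnrnpa3 and Alg12, which lies head to head with Creld2 and shares its element, and the lower ones were Pan2 and Zfp57. The shorter element was in 12 windows (0.0365%); of its 8 measured genes Herpud1 and Dnajb11 were higher, at log2 ratios of 2.10 and 1.99. Of the 33 listed ER genes with a window, 5 held the longer element (Hspa5, Hsp90b1, Pdia6, Calr and Canx) and 1 the shorter. A match says that these letters are present, and binding was not measured.

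Acidification genes were higher in part. Of 16 listed subunits of the vacuolar proton pump (V-ATPase), 4 were at least 2-fold higher in Reactivated and 0 lower, with a median log2 ratio of 0.69. Atp6v0a1, a membrane subunit, had 399.6 CPM in Reactivated and 56.5 CPM in EDG9.5, and Atp6v1a, the catalytic subunit, had 819.9 CPM in Reactivated and 357 CPM in EDG9.5. A subunit outside the list, Atp6v0a4, was lower, with 1.28 CPM in Reactivated and 27.0 CPM in EDG9.5. The 33 lysosomal genes did not share a direction, with 4 higher and 6 lower. The cathepsins Ctsc (612 CPM in Reactivated, 151 CPM in EDG9.5) and Ctsz (433 CPM in Reactivated, 107 CPM in EDG9.5) were among the higher ones. Psap, the precursor of saposins, had 68.5 CPM in Reactivated and 477 CPM in EDG9.5, and the lysosomal regulator Tfeb had 17.0 CPM in Reactivated and 77.4 CPM in EDG9.5. The palindromic element of lysosomal promoters, GTCAC followed directly by GTGAC, was found in 0.326% of all windows on either strand. None of the 11 V-ATPase and 27 lysosomal genes with a window held it. An element this rare would seldom appear among so few genes, so its absence says little about them.

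Metabolic genes were higher across several pathways. Of 24 glycolysis genes 9 were at least 2-fold higher in Reactivated and 0 lower. Ldha, lactate dehydrogenase A, had 1245 CPM in Reactivated and 95.4 CPM in EDG9.5, 13-fold (11.7 to 14.6), Pkm, pyruvate kinase, had 1213 CPM in Reactivated and 161 CPM in EDG9.5, and Aldoa, aldolase, had 2232 CPM in Reactivated and 414 CPM in EDG9.5. Hk2, hexokinase 2, went the other way but within 2-fold, with 180.0 CPM in Reactivated and 341 CPM in EDG9.5. The nuclear subunits of the respiratory chain gave 12 of 37 higher for complex I, 5 of 10 for complex III, 5 of 12 for complex IV and 7 of 16 for the ATP synthase, with 0 lower in each. The 10 measured mitochondrially encoded genes gave 0 higher and 2 lower and summed to 50632 CPM in Reactivated and 69935 CPM in EDG9.5. Their median log2 ratio was −0.33, but 0.12 when both libraries were held to cells of 4000 to 8000 UMIs (30 in Reactivated, 320 in EDG9.5). Among them mt-Co1, a complex IV subunit, had 4579 CPM in Reactivated and 14706 CPM in EDG9.5, while mt-Nd1, a complex I subunit, had 13102 CPM in Reactivated and 11926 CPM in EDG9.5.

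Cholesterol synthesis had 15 of 26 genes at least 2-fold higher in Reactivated and 0 lower. Fdps, farnesyl diphosphate synthase, had 232 CPM in Reactivated and 33.4 CPM in EDG9.5, and Sc4mol, a sterol demethylase, had 637 CPM in Reactivated and 150.0 CPM in EDG9.5. Srebf2, the transcription factor of the pathway, had 174 CPM in Reactivated and 274 CPM in EDG9.5. The sum of the list was 2122 CPM in EDG7.5, 2034 CPM in EDG9.5, 4882 CPM in Reactivated and 2688 CPM in E5.5, highest in Reactivated as for the ER list. Fatty acid oxidation had 2 of 24 higher and 1 lower, the lower one being Cpt1a, which admits fatty acids to mitochondria, with 34.7 CPM in Reactivated and 516 CPM in EDG9.5, 14.9-fold lower (12.7 to 17.6).

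The proteasome had 15 of 31 subunits at least 2-fold higher in Reactivated and 0 lower, with Psmd14, a deubiquitinating subunit of the lid, at 337 CPM in Reactivated and 98.1 CPM in EDG9.5. Genes of mitosis followed, with 21 of 34 higher and 0 lower. Birc5, the chromosomal passenger survivin, had 542 CPM in Reactivated and 93.8 CPM in EDG9.5, and Ube2c, which works with the anaphase-promoting complex, had 572 CPM in Reactivated and 105 CPM in EDG9.5. The mitotic list was already lower in EDG9.5 than in EDG7.5, at 1816 CPM in EDG9.5 and 3044 CPM in EDG7.5, and stood at 5465 CPM in Reactivated and 5477 CPM in E5.5. DNA replication genes had 5 of 33 higher and 0 lower, among them Rrm2, which supplies deoxynucleotides, with 418 CPM in Reactivated and 84.6 CPM in EDG9.5. Ribosome biogenesis, in contrast, had 3 of 39 higher and 2 lower, with a median log2 ratio of 0.05, in cells whose ribosomal protein genes took a median of 10.6% of UMIs in Reactivated and 12.4% in EDG9.5.

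**Figure D3:**
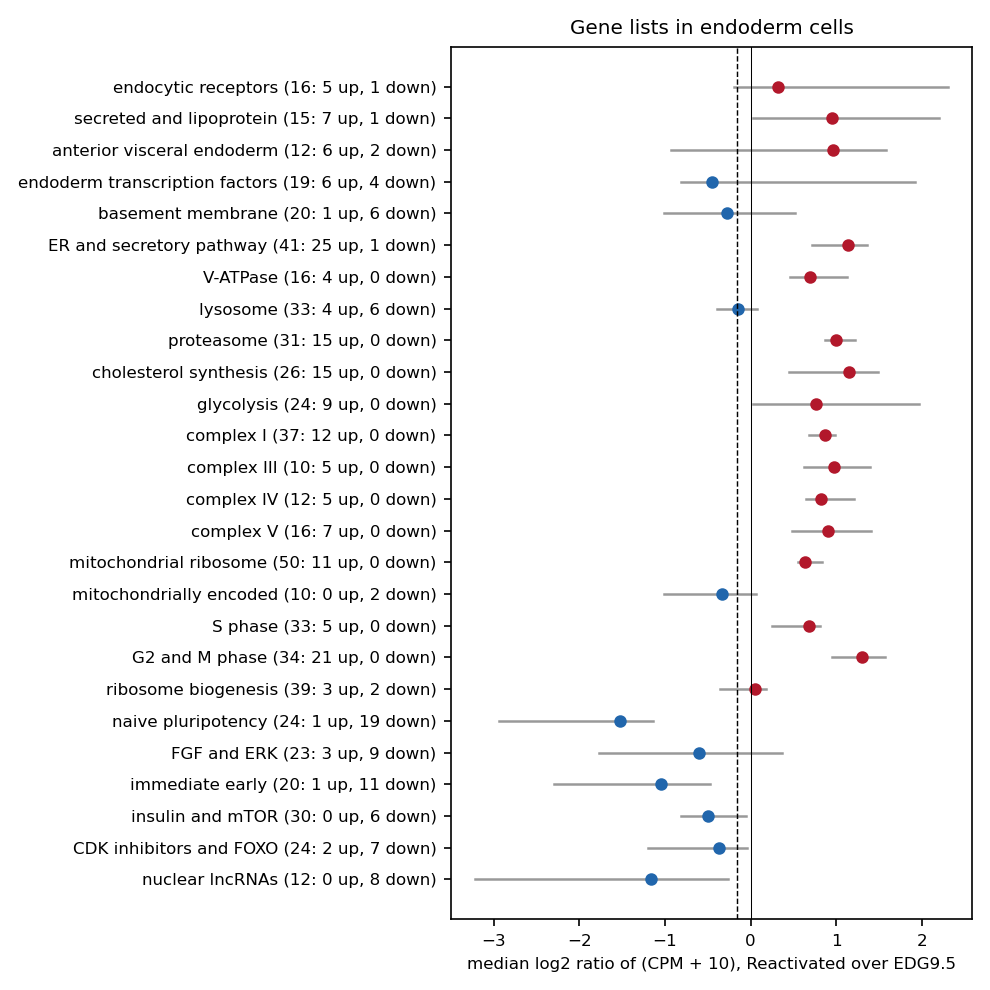
Median log2 ratio of (CPM + 10), Reactivated over EDG9.5 in endoderm cells, for each gene list, with the number of measured genes and of those at least 2-fold higher or lower beside its name. Bars are the order-statistic intervals of the median over the genes of a list and the dashed line is the median of all measured genes, −0.16; the ER list sits at 1.13 and naive pluripotency at −1.52.

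The plot of list medians places the groups beside each other. Genes of a list share the same 2 libraries, so the bars describe the spread among genes and not an error of the stage. Rule genes are among those plotted, and without them the median was 0.30 for endocytic receptors, −0.18 for endoderm factors, −0.51 for the basement membrane and −1.65 for naive pluripotency.

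Patterning genes of the anterior visceral endoderm were higher in part. Of 12 measured genes 6 were at least 2-fold higher in Reactivated and 2 lower, and 7 of the 12 had a positive log2 ratio. The median log2 ratio was 0.96, with an order-statistic interval over the genes of −0.93 to 1.59. The genes named below are mostly higher ones and do not stand for the whole list, since the 2 lower genes are not among them. Cyp26a1, which degrades retinoic acid, had 163 CPM in Reactivated and 4.51 CPM in EDG9.5, 36.2-fold (22.4 to 62.4). Its promoter holds a retinoic acid response element, 2 half-sites AGTTCA spaced by 5 bases, 32 bases before the start. The half-sites are shown in capitals as read on the gene's strand in RefSeq sequence of build GRCm38.p6. These exact letters were in 0.0244% of all windows on either strand. Other forms of the element were not searched, so that share is not the frequency of such elements. Binding to these letters was not measured.
Cyp26a1, chr19:37697751-37697807, plus strand: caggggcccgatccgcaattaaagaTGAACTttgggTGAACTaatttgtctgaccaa

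Lhx1, a homeobox factor of the anterior endoderm, had 65.5 CPM in Reactivated and 1.86 CPM in EDG9.5, below the 191 CPM of E5.5. Hhex, a homeobox factor, had 196 CPM in Reactivated and 59.9 CPM in EDG9.5. The secreted antagonists Dkk1, of WNT, and Lefty1, of Nodal, had 377 and 194 CPM in Reactivated, against 160 and 86.7 CPM in EDG9.5, and both were lower in E5.5, at 107 and 67.1 CPM. Foxa2, a forkhead factor of the visceral endoderm, had 105 CPM in Reactivated and 115 CPM in EDG9.5.

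Transcription factors of the endoderm went both ways. Of 17 measured without the rule genes Sox17 and Gata4, 6 were at least 2-fold higher in Reactivated and 3 lower. Gata6, a GATA factor that specifies primitive endoderm, had 383 CPM in Reactivated and 849.8 CPM in EDG9.5. Pdgfra, the receptor that marks primitive endoderm, had 165 CPM in Reactivated and 511 CPM in EDG9.5. Against these, Tfec, an MiT family factor, had 230.0 CPM in Reactivated and 13.5 CPM in EDG9.5, and Eomes, a T-box factor, had 123 CPM in Reactivated and 19.9 CPM in EDG9.5. Of the rule genes, Sox17 had 141 CPM in Reactivated and 635 CPM in EDG9.5 and Gata4 had 522 CPM in Reactivated and 832 CPM in EDG9.5. The basement membrane list without its 3 rule genes had 1 of 17 genes higher and 5 lower, with sums of 8151 CPM in Reactivated and 7487 CPM in EDG9.5. Within it Nid1, the linker nidogen, had 108 CPM in Reactivated and 379.6 CPM in EDG9.5. Serpinh1, the collagen chaperone HSP47, had 2639 CPM in Reactivated and 1399.5 CPM in EDG9.5. A list of parietal endoderm genes, without its rule genes, had 3 of 15 genes higher and 4 lower, with a median log2 ratio of −0.56. Its sums were 5874 CPM in Reactivated and 3430 CPM in EDG9.5.

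The naive pluripotency and LIF network, best known from the epiblast, was lower. Of 22 measured genes outside the rule, 18 were at least 2-fold lower in Reactivated and 1 higher, against a background of 10.4% lower, with a median log2 ratio of −1.65. Esrrb, an orphan nuclear receptor, had 9.36 CPM in Reactivated and 240.4 CPM in EDG9.5, 25.7-fold lower (19 to 35.6). Nr0b1, another orphan nuclear receptor, had 21.7 CPM in Reactivated and 376 CPM in EDG9.5, and Tbx3, a T-box factor, had 98.3 CPM in Reactivated and 958 CPM in EDG9.5. Socs3, the feedback inhibitor that LIF and STAT3 induce, had 16.2 CPM in Reactivated and 287 CPM in EDG9.5. The sums were 6857 CPM in EDG7.5, 6160 CPM in EDG9.5, 1371 CPM in Reactivated and 1064 CPM in E5.5. Pramel7, a gene of a family of near-identical copies whose reads the counting may split, had 0.851 CPM in Reactivated and 163 CPM in EDG9.5. Dppa2, a chromatin factor of early embryos, was the higher one, with 41.9 CPM in Reactivated and 13.8 CPM in EDG9.5.

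Immediate early genes were lower in part. Of 20 immediate early genes 11 were at least 2-fold lower in Reactivated and 1 higher. Egr1, a zinc finger factor induced by ERK, had 158 CPM in Reactivated and 1468 CPM in EDG9.5, Fos, an AP-1 subunit, had 55.8 CPM in Reactivated and 575 CPM in EDG9.5, and Myc had 4.89 CPM in Reactivated and 122 CPM in EDG9.5. Egr1 and Fos were also higher in EDG9.5 than in EDG7.5, where they had 809 and 294 CPM. Such genes are known to respond to handling and dissociation within minutes, and the part of handling in these values was not tested. Genes of FGF signalling and its feedback went both ways, with 9 of 23 at least 2-fold lower in Reactivated and 3 higher, against 10.4% and 5.55% of all genes. Spry2, a feedback inhibitor of receptor kinases, had 81.7 CPM in Reactivated and 553 CPM in EDG9.5, and the receptor Fgfr2 had 34.0 CPM in Reactivated and 256 CPM in EDG9.5. The ligand Fgf5 went the other way, with 407 UMIs (86.6 CPM) in Reactivated endoderm cells and 0 UMIs in EDG9.5, at least 109-fold higher with 3 UMIs over all EDG9.5 endoderm cells as the floor. Reactivated epiblast-set cells also carried Fgf5, at 67.4 CPM, against 1.58 CPM in EDG9.5 epiblast-set cells.

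Nuclear noncoding RNAs were lower too. Of 12 nuclear long noncoding RNAs and snoRNA host genes, 8 were at least 2-fold lower in Reactivated and 0 higher. Malat1, retained in nuclear speckles, had 160.0 CPM in Reactivated and 2005 CPM in EDG9.5, and Neat1, the scaffold of paraspeckles, had 7.45 CPM in Reactivated and 153 CPM in EDG9.5. Xist, which coats the inactive X chromosome, had 51.1 CPM in Reactivated and 752 CPM in EDG9.5, and reads of its antisense partner Tsix cannot be told apart from it here. Among genes of insulin and mTOR signalling, where 6 of 30 were lower and 0 higher against 10.4% and 5.55% of all genes, Igf2r, which clears IGF2, had 81.7 CPM in Reactivated and 319 CPM in EDG9.5, and Insr, the insulin receptor, had 6.17 CPM in Reactivated and 54.1 CPM in EDG9.5. Txnip, an inhibitor of glucose uptake, had 2.77 CPM in Reactivated and 59.6 CPM in EDG9.5. Asns, asparagine synthetase, a target of the amino acid response, had 247 CPM in Reactivated and 887 CPM in EDG9.5. Of the genes ranked, the lowest by log2 ratio was Ahnak, a large scaffold protein, at −4.46, followed by Pramel7 and Pros1, the anticoagulant protein S, with 56.8 CPM in Reactivated and 1019.7 CPM in EDG9.5.

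**Figure D4:**
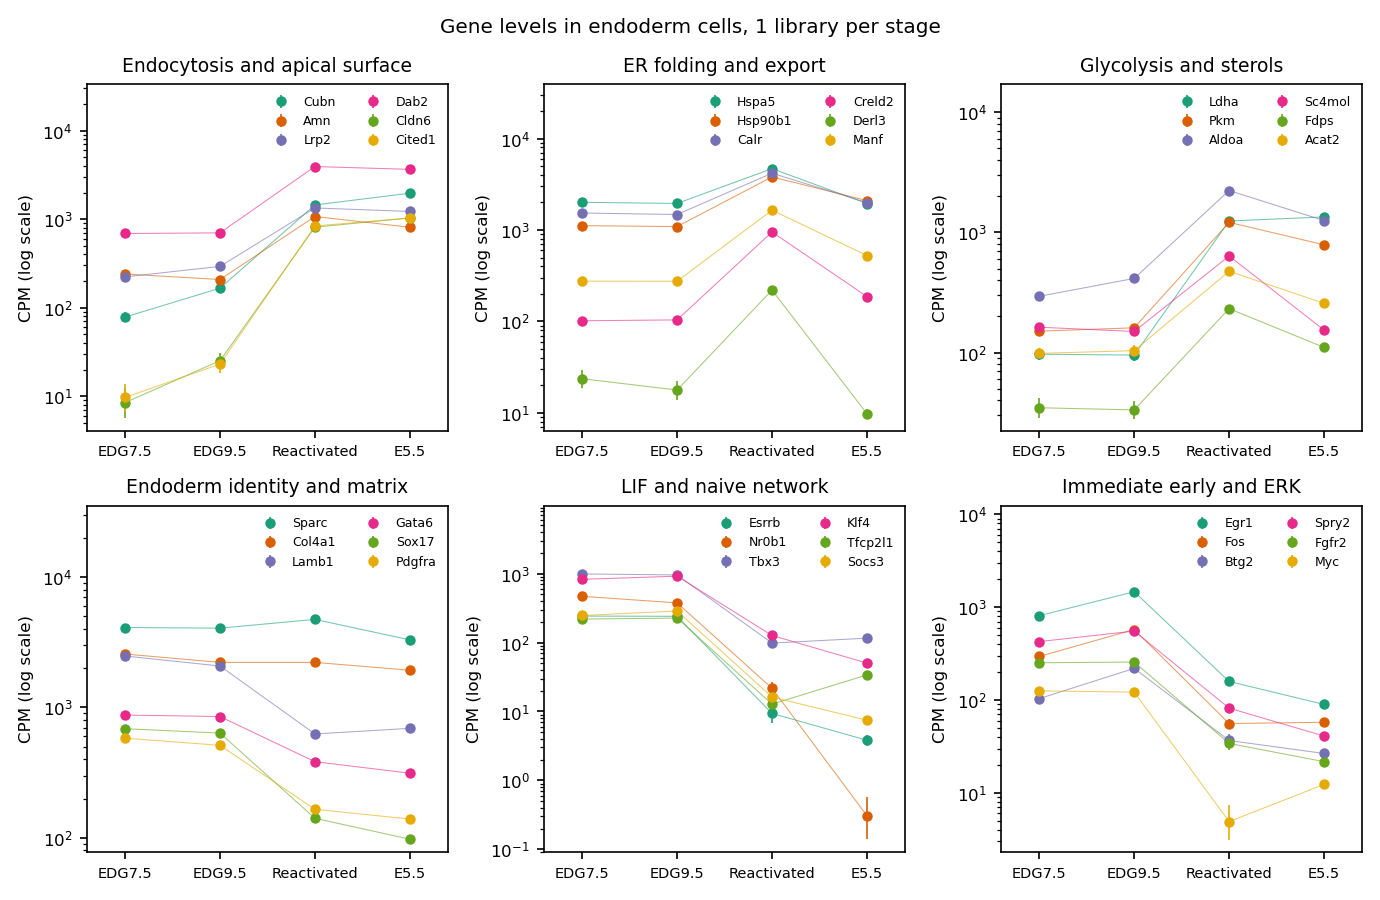
CPM in endoderm cells (vertical, log axis) of the 4 libraries in stage order, with 95% exact Poisson intervals, for 6 groups of genes. Creld2 was highest in Reactivated, at 951 CPM, while Esrrb stood at 242 CPM in EDG7.5, 240.4 CPM in EDG9.5, 9.36 CPM in Reactivated and 3.82 CPM in E5.5.

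In the plot of levels over the 4 libraries, Esrrb, Creld2 and Sparc lie close together in EDG7.5 and EDG9.5, while Cubn had 78.3 CPM in EDG7.5 and 166 CPM in EDG9.5. The endocytic genes and the naive network have Reactivated near E5.5, and the ER genes have it above both EDG9.5 and E5.5. Tfec (66.4 CPM in E5.5) and Dkk1 (107 CPM in E5.5) were likewise higher in Reactivated, at 230.0 and 377 CPM, than in any other library.

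The other classes of the same libraries show which groups were shared. In epiblast-set cells (206 in Reactivated, 592 in EDG9.5), 892 of 12250 genes (7.28%) were at least 2-fold higher in Reactivated and 2006 (16.4%) lower, and in trophoblast-set cells (153 in Reactivated, 975 in EDG9.5), 1128 of 11476 (9.83%) were higher and 1305 (11.4%) lower. Proteasome medians were 1.0 in endoderm, 0.96 in epiblast and 1.33 in trophoblast on the log2 scale. In the same order, those of mitosis were 1.30, 1.10 and 1.75, and those of glycolysis 0.77, 1.24 and 1.46. Immediate early genes were lower in each class, with medians of −1.04, −1.08 and −1.49. So was the naive network, here with its rule genes, at −1.52, −1.70 and −0.75. The ER list had 25 of 41 genes higher in endoderm, 2 of 41 in epiblast and 16 of 40 in trophoblast. Hspa5 had 1404 CPM in Reactivated and 2095 CPM in EDG9.5 epiblast-set cells. The V-ATPase list gave medians of 0.69 in endoderm, −1.09 in epiblast and −0.48 in trophoblast, and 9 of 16 subunits were lower in epiblast. Lysosomal genes gave −0.15, −1.58 and −0.96 in endoderm, epiblast and trophoblast. Ribosome biogenesis had a median of 0.05 in endoderm, 0.53 in epiblast and 1.01 in trophoblast. With 1 library per stage the difference between classes was not tested.

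**Figure D5:**
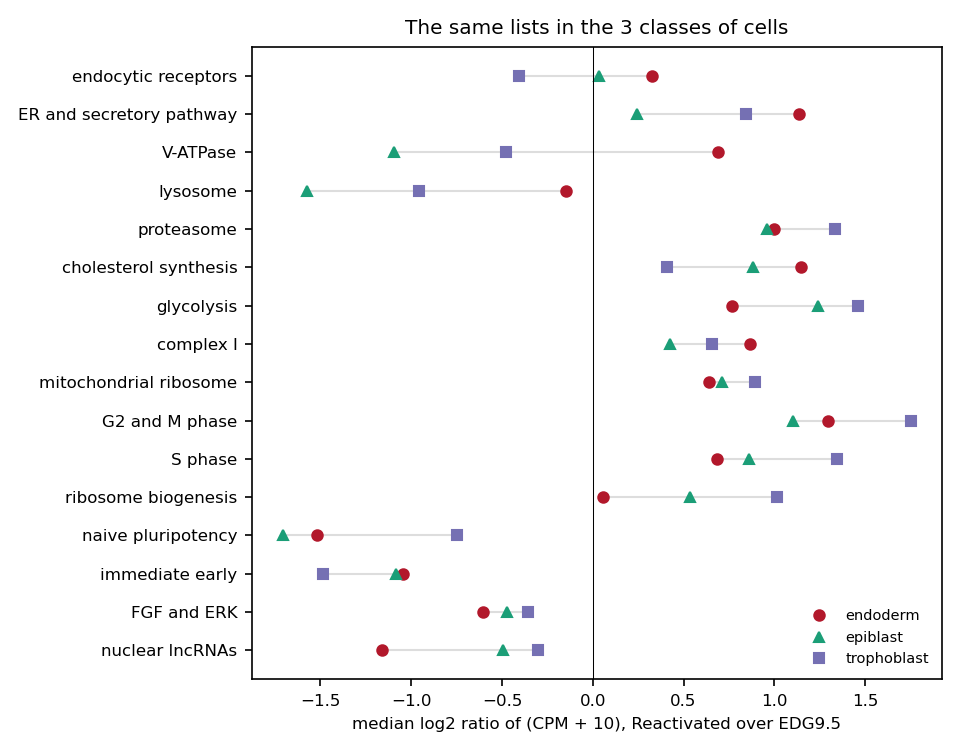
Median log2 ratio of (CPM + 10), Reactivated over EDG9.5, of selected gene lists in endoderm (circles), epiblast-set (triangles) and trophoblast-set cells (squares), each over the genes measured in that class. The classes lie close for the proteasome (1.0, 0.96 and 1.33) and apart for the V-ATPase (0.69, −1.09 and −0.48).

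The plot of lists by class draws these medians together. Single genes also parted between the classes: Dab2 had 3932 CPM in Reactivated and 700.3 CPM in EDG9.5 endoderm, but 72.8 CPM in Reactivated and 2183 CPM in EDG9.5 trophoblast-set cells. Cfl1, the actin-severing protein cofilin, was higher in every class, with 5183 CPM in Reactivated and 1761 CPM in EDG9.5 endoderm.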

How the data were processed

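Single cells of 4 libraries were captured on the BD Rhapsody platform, a microwell system. The deposited tables hold whole-number counts per gene and cell, read here as UMI counts. The authors aligned reads to mm10 with STAR 2.7.1a and counted them with featureCounts 1.6.4 (Subread) and UMI-tools 1.0.1, per the submitters' processing notes. Gene annotation, strandedness of counting and barcode selection are not stated there. Reads of overlapping genes may therefore be shared (Xist and Tsix, mt-Nd5 and mt-Nd6).

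Cells, identities, gene lists and named genes were chosen with earlier results of these data known. Counts were summed over the endoderm cells of a library and scaled to CPM. Genes with at least 10 UMIs over both sums were compared as log2 ratios of (CPM + 10), with 2-fold as the limit. Ratios have exact conditional binomial intervals, levels exact Poisson and shares exact binomial (Clopper-Pearson) intervals at 95%, computed with scipy 1.17.1 and tested on simulated counts. TMM factors came from edgeR 4.0.16 and Scrublet was run through scanpy 1.11.5. The endoderm sums ranged from 3306364 UMIs in EDG7.5 to 29323865 in E5.5. No p-value was computed, since each stage is 1 library; the deposited counts allow no count model with replicates.

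Some genes stand in more than 1 list. Named genes are the 15 at the top and the 15 at the bottom by ratio among genes of at least 50 UMIs and 100 CPM, the 10 with the largest gain and loss in CPM, the 25 rule genes, and in each of 57 lists the 4 most abundant members and the 3 with the largest ratio in each direction; predicted, ribosomal protein and mitochondrially encoded genes were left out of the first 2 groups. Canx, Dnajc3, Herpud1, Dnajb11, Alg12, Syvn1, Hnrnpa3, Pan2 and Zfp57 were named for their promoter letters, and Atp6v0a4 as a pump subunit outside its list, after their values were seen. Myc was also added by name. Scrublet marked 1 of 677 Reactivated and 8 of 2522 EDG9.5 cells as doublets, and they were kept in the main sums. Alternatives numbered 19, of which 3 were added after seeing the data: cells of 4000 to 8000 UMIs, EDG7.5 as the diapause library, and the Reactivated sum without the cell with stromal UMIs. Promoter sequences are from the RefSeq window table of build GRCm38.p6, and motifs were searched on both strands.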

Additional observations from a re-analysis of the deposited data

Results flagged for a closer look

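For 5 flagged genes the difference between Reactivated and EDG9.5 went opposite ways in endoderm cells and in another class of the same libraries. It was past 2-fold in both classes. How many of all measured genes did so is not given, so the 5 are examples and not a total. The difference between classes was not tested, since each stage has 1 library. Dab2 stood at a log2 ratio of 2.47 in endoderm cells and −4.73 in trophoblast-set cells, where it had 72.8 CPM in Reactivated and 2183 CPM in EDG9.5. Cyp26a1 stood at 3.58 in endoderm and −2.45 in trophoblast-set cells, with 31.8 CPM in Reactivated and 218 CPM in EDG9.5 in that class. Mt1, which encodes a metallothionein, stood at 1.56 in endoderm and −1.68 in trophoblast-set cells. Esrrb stood at −3.69 in endoderm and 1.52 in trophoblast-set cells, where it had 38.3 CPM in Reactivated and 6.81 CPM in EDG9.5. Eml1, a microtubule-binding protein, stood at 3.01 in endoderm and −1.36 in epiblast-set cells.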

How the results depend on the processing

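No paired analysis was possible because each stage has 1 library and no result comes from a test. Of 19 alternatives, the counts of genes at least 2-fold higher and lower (706 and 1323) became 1162 and 879 under TMM scaling, 1389 and 3213 with 1 CPM added, and 294 and 335 with 50 CPM added; the rest kept each count within 1.5 times. Of the 253 named genes past 2-fold, 171 stayed so with 50 CPM added and 192 in cells of 4000 to 8000 UMIs, where 5 changed direction, while the 30 named by ratio, the most extreme ones, stayed so in every alternative. List medians that left the interval of the main value are given here on the log2 scale, and the cause was not tested.

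Under TMM scaling the medians were 0.95 for S phase (main value 0.69), 0.52 for pyruvate dehydrogenase and the TCA cycle (0.28), 1.11 for complex I (0.87), 0.31 for ribosome biogenesis (0.05), 0.56 for translation factors (0.28), 0.87 for mitochondrial ribosomes (0.64), 1.42 for the ER (1.13), 1.27 for the proteasome (1.0) and 0.087 for the lysosome (−0.15). With 50 CPM added they were −0.99 for naive pluripotency (−1.52), −0.19 for BMP and ID genes (−0.64), 0.85 for G2 and M phase (1.30), 0.62 for complex I, 0.39 for mitochondrial ribosomes and 0.81 for the proteasome. With 1 CPM added they were −1.07 for BMP and ID genes, 0.86 for mitochondrial ribosomes and −1.27 for imprinted genes (−0.43), which stood at −1.13 in thinned cells and at −1.13 among genes of at least 50 UMIs.

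In cells of 4000 to 8000 UMIs (30 in Reactivated, 320 in EDG9.5) the medians were 0.064 for Hippo and YAP targets (−0.39), 0.56 for complex I, 0.55 for complex IV (0.82), 0.12 for mitochondrially encoded genes (−0.33), 0.35 for mitochondrial ribosomes and 0.84 for the proteasome. There Etv4 stood at −1.10 against 1.24, Col1a1 and Col3a1 at 0.00, Col1a2 at −0.37 and Dcn at −0.082. Without the cell with stromal UMIs, Col1a1 stood at −0.0073, Col1a2 at −0.31 and Dcn at −0.18. With EDG7.5 in place of EDG9.5 the medians were 0.76 for G2 and M phase, 0.87 for the proteasome and 0.19 for coagulation genes (0.06), and 650 genes were higher and 1362 lower.

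Depth limits low genes in EDG9.5, whose endoderm cells had a median of 3584 UMIs against 14262 in Reactivated, and no alternative stands in for a second library.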

Other observations

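Iron, heme and redox genes of the endoderm were not described above. Slc40a1, which encodes the iron exporter ferroportin, had 125 CPM in Reactivated and 9.81 CPM in EDG9.5 endoderm cells, and Hmox1, heme oxygenase 1, had 175 CPM in Reactivated and 48.2 CPM in EDG9.5. The iron and heme list had 3 of 17 genes at least 2-fold higher in Reactivated and 0 lower, against 5.55% and 10.4% of all measured genes. Bnip3, a mitophagy receptor, had 298 CPM in Reactivated and 42.4 CPM in EDG9.5.

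Among serine and one-carbon genes, 6 of 15 were at least 2-fold higher in Reactivated and 1 lower: Phgdh, the first enzyme of serine synthesis, had 55.1 CPM in Reactivated and 10.9 CPM in EDG9.5, and Gldc, a subunit of the glycine cleavage system, had 189 CPM in Reactivated and 65.7 CPM in EDG9.5. Has2, hyaluronan synthase 2, had 105 CPM in Reactivated and 2.39 CPM in EDG9.5. Dpp4, an apical peptidase, had 201 CPM in Reactivated and 11.9 CPM in EDG9.5. A list of estrogen receptors, steroid enzymes and estrogen-responsive genes gave 1 of 11 higher and 1 lower, with a median log2 ratio of −0.16, the same as all genes. H19, an imprinted noncoding RNA, had 376 CPM in Reactivated and 76.1 CPM in EDG9.5; its E5.5 level was 6196 CPM. Cell contact genes included Gja1, a connexin, with 426 CPM in Reactivated and 181 CPM in EDG9.5. The S100 list had 3 of 8 genes lower and 0 higher, against 10.4% and 5.55% of all measured genes, among them S100g, a calcium-binding protein, with 26.6 CPM in Reactivated and 272 CPM in EDG9.5.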
